A study of Rattus norvegicus with 6 samples.

Results

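The mitochondrial respiratory chain subunits are the nuclear genes for the proteins of complexes I to V and for cytochrome c. Members were the genes whose symbol in the platform annotation follows the naming of these subunits, on probe sets that name 1 gene only, and the brightest of a gene's probe sets, by mean of the 6 arrays, stood for the gene. This gave 105 of the 22093 genes measured, among them 79 subunit genes and 26 pseudogenes or like-named copies. The 79 comprise 34 genes of complex I, 4 of complex II, 9 of complex III, 1 for cytochrome c, 16 of complex IV, with Ndufa4 and Ndufa4l2 counted there, and 15 of complex V. Some subunit genes, among them Cox7a1, Cox6b1, Cox7c and Ndufa13, had no probe set naming them alone and are not analysed here. Names alone decided which genes are members, while the probe set standing for a gene was picked by its signal. This moved the values of the 5 members with a second probe set, Atp5mk, Cycs, Atp5pb, Atp5f1e and Ndufa1. In each of the 5 the probe set kept had the larger difference.

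Tendon was taken from Sprague-Dawley rats 1 week after injury or control surgery. The injured group consisted of rats whose tendons had been injured and the control group of rats that had control surgery, with 3 arrays each, which the labels call biological replicates. The sources used here give no age or sex of the rats, which tendon was taken or how it was injured, and no allele or further agent. Values are log2 signals of an Affymetrix rat array, so a difference of 1 is a 2-fold difference. Precision is limited by having 6 arrays.

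Injured replicates 2 and 3 stood apart from the other 4 arrays before any comparison was made. The median of the unnamed probe sets was 6.61 and 6.50 on these arrays, against 5.59 on injured replicate 1 and 5.49 to 5.79 on the control arrays. As a group mean therefore joins 1 array near the control level with 2 far from it, values are given by array and the main counts also without injured replicate 1. The labelled tissue was checked against tenocyte markers, of which 11, 8 and 8 of 12 lay above the unnamed median on injured replicates 1, 2 and 3, and 12, 12 and 11 on control replicates 1, 2 and 3. All 30 skeletal muscle fibre markers lay above it on the control arrays as well, with medians of 18.39, 17.30 and 17.48 on control replicates 1, 2 and 3.

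The respiratory chain passes electrons from NADH through complex I, or from succinate through complex II, to coenzyme Q, then through complex III and the small carrier cytochrome c to oxygen at complex IV. Complexes I, III and IV pump protons across the inner mitochondrial membrane, and complex V, the ATP synthase, lets them flow back to make ATP. A few subunits are encoded in mitochondrial DNA, and the nuclear genes described here encode the rest. Skeletal muscle fibres hold many mitochondria and use their own forms of some complex IV subunits, while tenocytes are sparse cells with low oxygen use.

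Transcripts of all 5 complexes read lower in injured than in control tendon on average, by an amount carried by 2 of the 3 injured arrays. Over the 79 subunit genes the median difference was -1.18, and over all 22093 genes it was 0.15. Leaving out 1 array gave subunit medians of -1.55 to -0.87, and with each array's median over unnamed probe sets as a covariate the subunit median was -0.30. Differences lay below 0 for 76 of 79 subunit genes, against 38.2% of all genes, and above 0 for 3 of 79, against 61.8%. The groups differed by at least 2-fold downward for 42 of 79, against 10.9% of all genes, and upward for 0 of 79, against 9.68%. Among all genes the downward share rose with mean log2 signal, from 1.68% under 8 to 36.4% from 8 to 10 and 65.0% at 10 and above. Among subunit genes it was 16.7%, 60.7% and 95.2% in these ranges, so the 10.9% is a low baseline for bright genes. The median over subunit genes relative to the control mean was -0.32, -1.54 and -1.54 on injured replicates 1, 2 and 3, against 0.53, -0.10 and -0.40 on control replicates 1, 2 and 3. Injured replicate 1 thus lay within the range of the control arrays and injured replicates 2 and 3 lay below it. In bulk tissue, fewer cells of a type and less RNA per cell cannot be told apart. Signals outside the chain also shifted on injured replicates 2 and 3. Medians relative to the control mean were -2.63 and -2.41 there for the 11 reference genes described below. For 1276 olfactory and vomeronasal receptor genes they were 2.11 and 2.03. The part of array-wide signal in the subunit differences was not tested.

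No member passed limma at an adjusted p of 0.05 over all genes, where 0.00% of genes passed, and the adjusted p of the subunit genes ran from 0.322 to 0.760. At an unadjusted p under 0.05, 34 of 79 subunit genes were lower, against 7.25% of all genes, and 1 was higher, against 4.39%. All injured arrays read below all control arrays for 28 of 79, against 8.00% of all genes, and above them for 1 of 79, against 7.09%. Without injured replicate 1, limma called 57 of 79 subunit genes lower at an adjusted p of 0.05, against 21.6% of all genes, and 2 higher, against 39.1%. Injured replicate 1 alone lay within the control range for 49 of 79 subunit genes (62%), near the share of 54.7% of all genes.

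**Figure D1:**
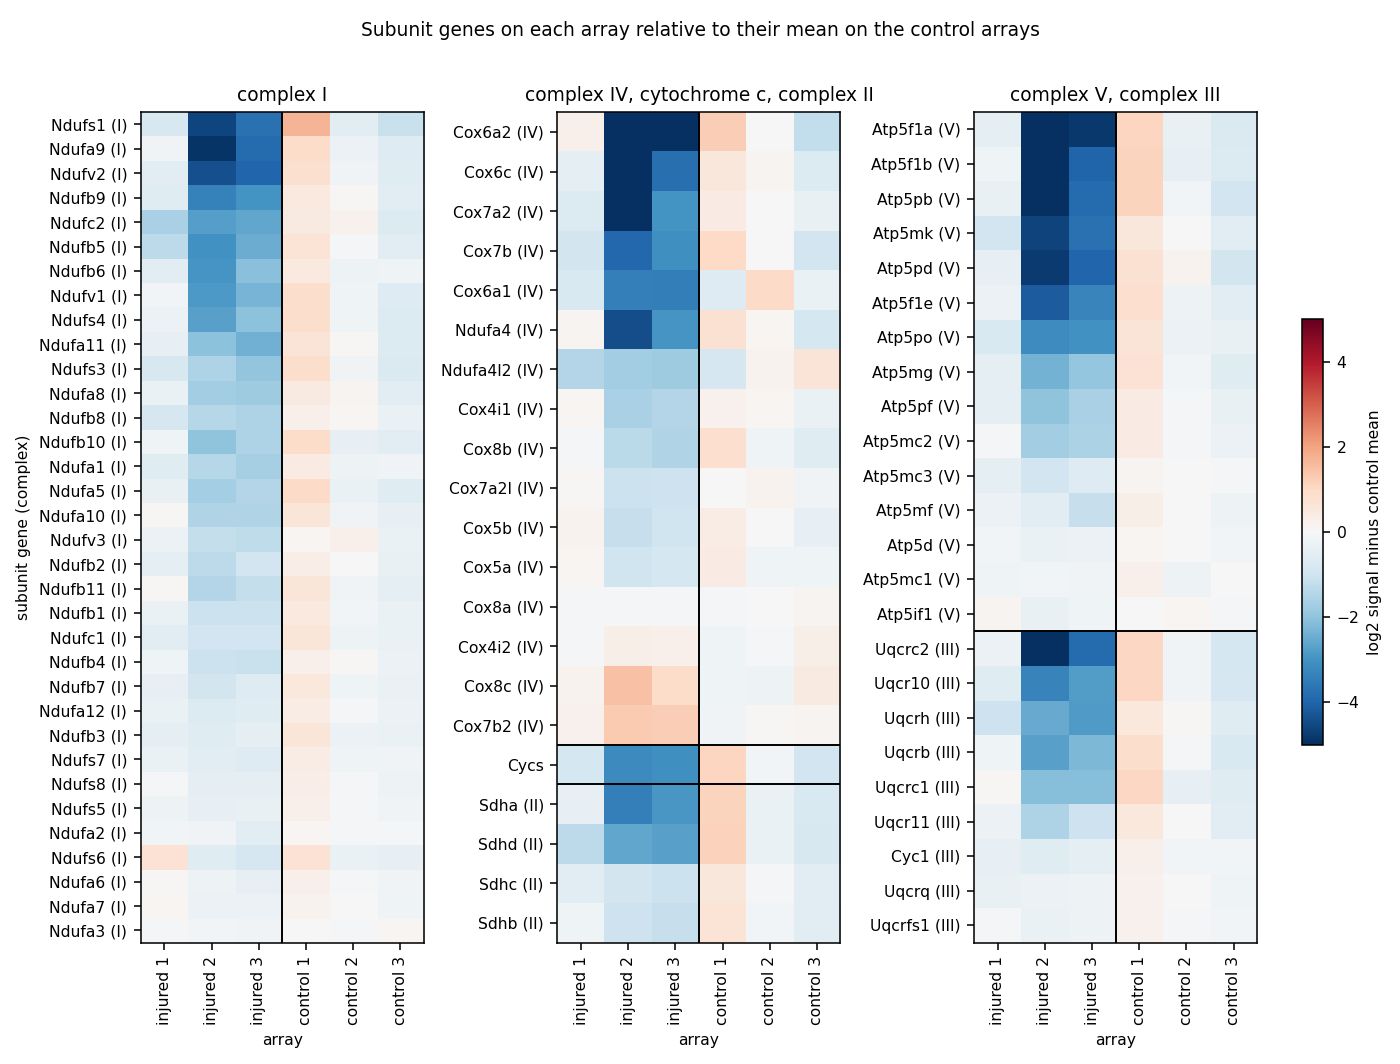
Log2 signal of each of the 79 subunit genes minus its mean on the control arrays, with 1 column per array, injured left of control, and rows grouped by complex and sorted by mean difference. Colours run from -5 to 5 and larger differences have the end colour. Injured replicates 2 and 3 are blue for most genes of every complex, while injured replicate 1 is close to white, and control replicate 1 is the reddest control array.

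**Figure D2:**
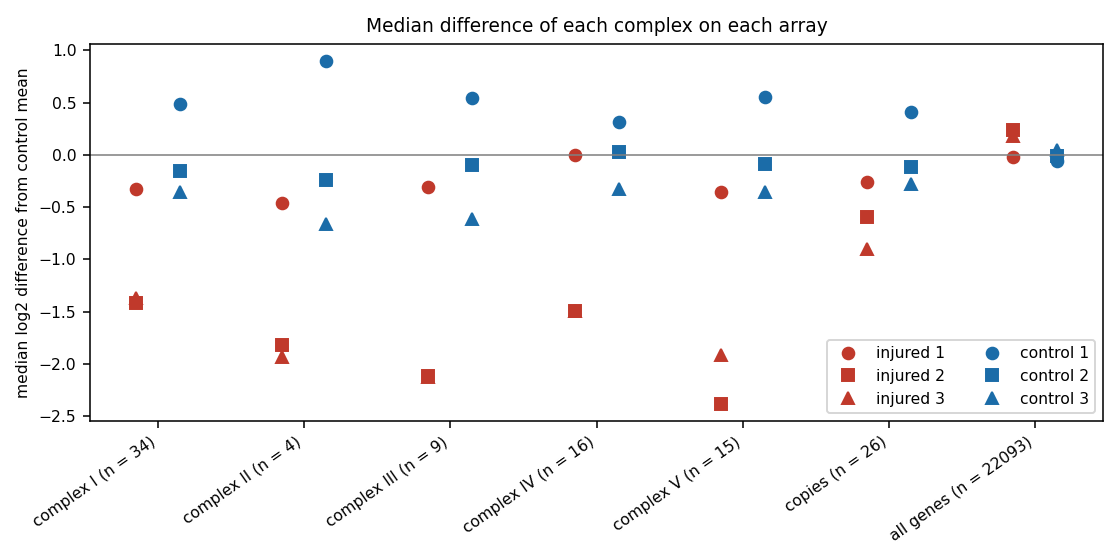
Median log2 difference from the control mean over the subunit genes of each complex, the copies and all genes, with 1 point per array, injured left and control right in each column, and the number of genes in brackets. Injured replicates 2 and 3 lie at or below -1.37 in all 5 complexes, and injured replicate 1 lies within the control range.

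Complex I, the NADH dehydrogenase, had a median difference of -0.95 over 34 genes, and all 34 differences were below 0. Its median relative to the control mean was -0.32, -1.42 and -1.37 on injured replicates 1, 2 and 3, against 0.49, -0.16 and -0.35 on the control arrays. On injured replicates 2 and 3, all 34 genes read below every control array, against 30.4% of all genes. At an unadjusted p under 0.05, 16 of 34 were lower, against 7.25% of all genes. Without injured replicate 1 limma called 23 of 34 lower at an adjusted p of 0.05, against 21.6% of all genes.

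The largest differences in complex I were those of 2 genes for its NADH-oxidising arm and 1 for its hinge to the membrane arm. Ndufs1, which encodes the large iron-sulfur subunit, read 11.71, 7.94 and 8.80 on injured replicates 1, 2 and 3, against 14.22, 11.96 and 11.40 on control replicates 1, 2 and 3. Ndufv2, which encodes an iron-sulfur subunit beside the site of NADH oxidation, read 11.76, 7.90 and 8.33 on the injured arrays and 13.08, 12.10 and 11.67 on the control arrays. Ndufa9, an accessory subunit at the junction of the arms, read 12.03, 7.30 and 8.33 on the injured arrays and 13.12, 11.91 and 11.56 on the control arrays. For all 3 genes injured replicate 1 lay inside the control range and the other 2 injured arrays lay more than 2 log2 units below it. The differences were -3.04 (SE 1.21) for Ndufs1, -2.95 (SE 1.09) for Ndufv2 and -2.98 (SE 1.27) for Ndufa9, each with a limma adjusted p of 0.322. Without injured replicate 1 the limma adjusted p was 0.014 for Ndufs1, 0.003 for Ndufv2 and 0.004 for Ndufa9. That setting drops the injured array nearest the controls, and it called 21.6% of all genes lower and 39.1% higher.

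Subunits of the membrane arm, which carries the proton pumps, included genes that were lower on every injured array. The grouping by arm was chosen after the values were seen. Groups did not overlap for 11 of 19 membrane arm genes, 2 of 10 genes of the NADH-oxidising module and 2 of 5 genes of the coenzyme Q module, against 8.00% of all genes. Ndufc2, a small accessory subunit of this arm, read 9.89, 8.74 and 8.90 on injured replicates 1, 2 and 3, against 11.93, 11.73 and 10.83 on control replicates 1, 2 and 3. All 3 injured arrays were below all 3 control arrays, with a difference of -2.32 (SE 0.43) and an unadjusted limma p of 0.002 (adjusted p = 0.322). Ndufb5, another accessory subunit of the arm, read 8.91, 7.18 and 7.72 on the injured arrays and 10.88, 10.10 and 9.62 on the control arrays, a difference of -2.26 (SE 0.54). Ndufb8, whose protein is often used to gauge assembled complex I, read 7.37, 6.80 and 6.66 on the injured arrays and 8.46, 8.30 and 7.87 on the control arrays, a difference of -1.27 (SE 0.27). In these 3 genes injured replicate 1 was already below the controls, at -1.61, -1.29 and -0.84 from the control mean for Ndufc2, Ndufb5 and Ndufb8.

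The smallest differences of complex I lay near 0. Ndufa3, Ndufa7 and Ndufa6 differed by -0.14 (SE 0.14), -0.16 (SE 0.19) and -0.21 (SE 0.20), and Ndufs6, an accessory subunit of the NADH-oxidising module, by -0.24 (SE 0.53). Ndufs6 read 10.64, 9.29 and 9.05 on the injured arrays and 10.64, 9.57 and 9.50 on the control arrays, so that injured replicate 1 equalled the highest control array. Ndufa3, Ndufa7 and Ndufa6 were among the dimmest genes of the complex, with group means between 5.63 and 7.003.

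Complex II, succinate dehydrogenase, belongs to the respiratory chain and the citric acid cycle at once. Its 4 genes had a median difference of -1.52, and the complex median was -0.46, -1.82 and -1.94 on injured replicates 1, 2 and 3, against 0.90, -0.24 and -0.66 on the control arrays. Sdha, which encodes the flavoprotein that oxidises succinate, read 11.36, 8.35 and 8.86 on injured replicates 1, 2 and 3, against 12.86, 11.43 and 10.99 on control replicates 1, 2 and 3. Sdhd, a membrane anchor, read 8.40, 7.13 and 7.00 on the injured arrays and 10.85, 9.38 and 8.91 on the control arrays, with no overlap between groups. The differences were -2.24 (SE 0.92) for Sdha and -2.20 (SE 0.63) for Sdhd. Sdhc, the other membrane anchor, read 9.16, 8.78 and 8.61 on the injured arrays and 10.26, 9.62 and 9.16 on the control arrays, with injured replicate 1 equal to the lowest control array and a difference of -0.83 (SE 0.33). Sdhb, the iron-sulfur subunit, differed by -0.82 (SE 0.42). Of the 4 genes, 2 were lower at an unadjusted p under 0.05, against 7.25% of all genes.

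Complex III, the cytochrome bc1 complex, had a median difference of -1.40 over 9 genes, all below 0. The median was -2.12 without injured replicate 1 and -0.88 without control replicate 1. By array, relative to the control mean, the median was -0.30, -2.12 and -2.13 on injured replicates 1, 2 and 3, against 0.55, -0.09 and -0.62 on the control arrays. Uqcrc2, which encodes a core subunit, read 13.71, 8.44 and 10.16 on injured replicates 1, 2 and 3, against 15.04, 13.85 and 13.15 on control replicates 1, 2 and 3. Uqcr10, a small subunit, read 9.45, 6.69 and 7.26 on the injured arrays and 11.06, 9.87 and 9.19 on the control arrays. Uqcrh, the hinge protein that touches cytochrome c1, read 7.92, 6.42 and 6.10 on the injured arrays and 9.49, 9.02 and 8.32 on the control arrays, with no overlap. Uqcrb, a subunit near the quinone site, read 10.30, 7.80 and 8.28 on the injured arrays and 11.37, 10.43 and 9.73 on the control arrays. These genes differed by -3.24 (SE 1.39), -2.24 (SE 0.85), -2.13 (SE 0.57) and -1.72 (SE 0.77), in that order. The 2 redox subunits of this complex on the list had smaller differences: Cyc1, cytochrome c1, by -0.50 (SE 0.18) and Uqcrfs1, the Rieske iron-sulfur protein, by -0.20 (SE 0.17). Their group means were 7.58 and 8.09 for Cyc1 and 7.47 and 7.67 for Uqcrfs1 in injured and control tendon. Of the 9 genes, 3 were lower at an unadjusted p under 0.05, against 7.25% of all genes, and 7 were called lower by limma without injured replicate 1, against 21.6%.

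Cycs encodes cytochrome c, the mobile carrier between complexes III and IV, which also starts apoptosis when it leaves the mitochondrion. It had 2 probe sets. The brighter one read 13.21, 10.89 and 11.02 on injured replicates 1, 2 and 3, against 15.17, 13.95 and 13.11 on control replicates 1, 2 and 3, a difference of -2.37 (SE 0.82) with a limma adjusted p of 0.322. Its identifier carries chromosome 18, while the gene lies on chromosome 4 in RefSeq. The other probe set, with chromosome 4 in its identifier, read 9.48, 8.01 and 8.17 on the injured arrays and 11.07, 9.88 and 9.31 on the control arrays, a difference of -1.53. On both probe sets injured replicate 1 lay within the control range and the other injured arrays lay below it.

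Complex IV, cytochrome c oxidase, had a median difference of -0.997 over 16 genes, with 13 below 0 and 3 above. Its median was -0.003, -1.50 and -1.49 on injured replicates 1, 2 and 3, so injured replicate 1 was at the control mean. At an unadjusted p under 0.05, 5 of 16 were lower, against 7.25% of all genes, and 1 was higher, against 4.39%. Without injured replicate 1 limma called 12 lower, against 21.6% of all genes, and 2 higher, against 39.1%. With the background covariate the median of the complex was -0.003. Cox6c, a ubiquitous subunit and the brightest member of the set, read 16.33, 11.64 and 13.07 on injured replicates 1, 2 and 3, against 17.39, 16.97 and 16.14 on control replicates 1, 2 and 3. Cox7a2, the general form of subunit VIIa, read 12.68, 8.13 and 10.35 on the injured arrays and 13.75, 13.33 and 12.97 on the control arrays, with no overlap. The differences were -3.15 (SE 1.21) for Cox6c and -2.96 (SE 1.13) for Cox7a2, both with a limma adjusted p of 0.322. Ndufa4, named for complex I but known as a subunit of complex IV, read 12.17, 7.58 and 9.08 on the injured arrays and 12.79, 12.11 and 11.15 on the control arrays, a difference of -2.41 (SE 1.21). Cox7a2l, a factor that joins complexes III and IV, read 10.59, 9.46 and 9.50 on the injured arrays and 10.50, 10.71 and 10.34 on the control arrays, a difference of -0.67 (SE 0.35).

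Muscle forms of complex IV subunits were examined next, since muscle fibre markers were bright on the control arrays. Cox6a2 is the heart and skeletal muscle form of subunit VIa, and Cox6a1 is the form of most other tissues. Cox8b is the muscle form of subunit VIII, and Cox8a is the general form. Cox7a1, the muscle form of subunit VIIa, is not analysed here. Promoter sequences of Cox6a2, Cox8b and Cox8a are shown because the forms differ in tissue use, with those of Cycs and Atp5f1a as genes used in all tissues, and that of Cox6a1 is not used here. They run from 250 bases before to 50 bases after the gene start, from RefSeq on GRCr8, written 5′ to 3′ on the gene's strand. Capitals mark matches on either strand to 5 motifs: GCATGCG (core of the NRF1 motif), CCGGAAG (core of the GABP motif), AAGGTCA (monomer site of the ERR receptors), CAGCTG (an E-box of the myogenic factors) and the MEF2 motif.
Cox6a2: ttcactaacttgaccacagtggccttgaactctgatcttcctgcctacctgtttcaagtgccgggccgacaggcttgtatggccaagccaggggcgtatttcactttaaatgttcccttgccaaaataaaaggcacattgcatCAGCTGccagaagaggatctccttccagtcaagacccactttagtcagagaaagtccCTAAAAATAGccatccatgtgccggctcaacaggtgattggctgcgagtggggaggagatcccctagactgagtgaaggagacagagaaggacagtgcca
Cox8b: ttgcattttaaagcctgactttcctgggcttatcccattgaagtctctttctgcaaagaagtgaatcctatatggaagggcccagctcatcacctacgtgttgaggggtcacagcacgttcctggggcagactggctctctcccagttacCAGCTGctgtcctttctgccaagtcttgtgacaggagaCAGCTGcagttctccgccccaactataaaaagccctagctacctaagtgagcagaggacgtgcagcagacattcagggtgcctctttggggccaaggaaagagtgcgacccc
Cox8a: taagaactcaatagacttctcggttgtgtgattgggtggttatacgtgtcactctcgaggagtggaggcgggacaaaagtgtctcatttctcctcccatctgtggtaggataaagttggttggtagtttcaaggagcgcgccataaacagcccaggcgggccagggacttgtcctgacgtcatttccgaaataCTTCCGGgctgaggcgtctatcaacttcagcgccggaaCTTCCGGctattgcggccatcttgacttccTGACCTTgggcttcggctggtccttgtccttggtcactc
Cycs: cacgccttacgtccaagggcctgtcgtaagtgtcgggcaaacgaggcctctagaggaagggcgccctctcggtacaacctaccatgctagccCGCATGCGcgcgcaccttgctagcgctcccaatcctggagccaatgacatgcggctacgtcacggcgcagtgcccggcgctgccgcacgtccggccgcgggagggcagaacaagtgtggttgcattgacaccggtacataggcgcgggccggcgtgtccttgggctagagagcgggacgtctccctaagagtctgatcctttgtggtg
Atp5f1a: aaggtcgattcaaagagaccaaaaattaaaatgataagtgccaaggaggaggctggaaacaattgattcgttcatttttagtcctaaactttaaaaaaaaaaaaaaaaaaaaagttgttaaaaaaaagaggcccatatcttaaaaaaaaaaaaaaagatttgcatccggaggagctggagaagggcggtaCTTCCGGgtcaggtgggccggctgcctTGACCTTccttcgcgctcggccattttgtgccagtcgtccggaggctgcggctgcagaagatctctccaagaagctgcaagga

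The windows lie at chr1:192219667-192219966, minus strand, for Cox6a2, chr1:205408224-205408523, minus strand, for Cox8b, chr1:213833574-213833873, minus strand, for Cox8a, chr4:80984718-80985017, minus strand, for Cycs, and chr18:73567287-73567586, plus strand, for Atp5f1a. The Cox6a2 window holds an E-box and a MEF2 match, with first bases at -107 and -50 relative to the gene start, and no match to the other 3 motifs. The Cox8b window holds 2 E-boxes. The Cox8a window holds 2 GABP cores, and an ERR site that starts at base 12 of the gene. The Cycs window holds the NRF1 core on both strands, in 2 overlapping matches, and that of Atp5f1a holds a GABP core and an ERR site. A promoter was found for 70 of the 79 subunit genes. The NRF1 core was in 15.7% of the 70 and in 4.13% of 18999 protein-coding promoters, the GABP core in 27.1% and 11.2%, and the ERR site in 15.7% and 3.71%. The E-box was in 15.7% of the 70 and 15.3% of all, and MEF2 in 1 of 70, that of Cox6a2, and 2.89% of all. The median difference between injured and control tendon was -1.40 for the 11 genes with an NRF1 core and -0.98 for the 59 without. It was -1.23 for the 19 genes with a GABP core and -0.99 for the 51 without, and -0.81 for the 11 with an ERR site and -1.18 for the 59 without. With an E-box it was -1.25 (11 genes), and without one -0.91 (59 genes). A match describes letters in this window only.

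Cox6a2 had the largest difference of all members. It read 17.79, 8.77 and 12.05 on injured replicates 1, 2 and 3, against 18.74, 17.56 and 16.28 on control replicates 1, 2 and 3. Injured replicate 1 was above 2 of the 3 control arrays, while injured replicates 2 and 3 lay at -8.76 and -5.48 from the control mean. The group means were 12.87 ± 4.57 in injured tendon and 17.53 ± 1.23 in control tendon (SD, n = 3 each), a difference of -4.66 (SE 2.29), or 25.2-fold lower by means, with a limma adjusted p of 0.322. The difference was -7.12 without injured replicate 1 and -2.61 without injured replicate 2, and with the background covariate its sign turned, to 0.16. Cox6a1 read 9.20, 6.58 and 6.53 on the injured arrays and 9.35, 10.95 and 9.64 on the control arrays. Its groups did not overlap, and the difference was -2.54 (SE 0.86). On injured replicates 2 and 3 Cox6a1 lay near the unnamed medians of those arrays, 6.61 and 6.50, which limits the comparison of the pair. The within-array difference of Cox6a2 minus Cox6a1 was 8.59, 2.19 and 5.52 on the injured arrays and 9.39, 6.61 and 6.64 on the control arrays. Its mean differed by -2.11 between injured and control tendon, with a two-sided exact permutation p of 0.4 (0.4 adjusted over the 2 pairs compared), where 3 against 3 arrays cannot give less than 0.1. Without injured replicate 1 the value was -3.69, and without injured replicate 2 it was -0.49, so single arrays moved it by over 1.5 times.

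Cox8b read 7.41, 6.14 and 5.99 on the injured arrays and 8.33, 7.30 and 6.88 on the control arrays, a difference of -0.99 (SE 0.54). Cox8a read 6.91, 6.96 and 6.89 on the injured arrays and 6.91, 6.98 and 7.13 on the control arrays, a difference of -0.09 (SE 0.14). Both probe sets were dim, with means over the 6 arrays of 7.01 for Cox8b and 6.96 for Cox8a. On injured replicates 2 and 3 Cox8b lay below the unnamed medians of those arrays, 6.61 and 6.50. The part of background in the pair difference was not tested. Cox8b minus Cox8a was 0.50, -0.82 and -0.90 on the injured arrays and 1.42, 0.32 and -0.25 on the control arrays (two-sided exact permutation p = 0.3, adjusted p = 0.4). The 2 lowest of the 6 values were those of injured replicates 2 and 3, but injured replicate 1 lay among the controls.

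Further tissue forms differed in size and sign. Cox4i1, the general form of subunit IV, read 9.89, 8.17 and 8.33 on the injured arrays and 10.03, 9.89 and 9.48 on the control arrays, a difference of -1.003 (SE 0.50). Cox4i2, its low-oxygen form found mainly in lung, read 6.03, 6.42 and 6.35 on the injured arrays and 5.90, 6.02 and 6.41 on the control arrays, a difference of 0.16 (SE 0.21) whose sign turned under quantile normalization (-0.36) and under centring of the arrays (-0.37). Ndufa4l2, a relative of Ndufa4 known as a target of hypoxia-inducible factors, read 7.27, 7.02 and 6.96 on injured replicates 1, 2 and 3, against 7.93, 8.94 and 9.39 on control replicates 1, 2 and 3. Its difference was -1.67 (SE 0.39), with an unadjusted limma p of 0.006 (adjusted p = 0.322), and it was lower on all 3 injured arrays, injured replicate 1 included. Control replicate 1 was its lowest control array.

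The 2 subunit genes that read higher by the largest amounts are known from testis. Cox7b2 read 5.75, 6.85 and 6.78 on the injured arrays and 5.37, 5.60 and 5.67 on the control arrays, with no overlap and a difference of 0.91 (SE 0.33). Cox8c read 6.18, 7.47 and 6.94 on the injured arrays and 5.81, 5.76 and 6.48 on the control arrays, with overlap and a difference of 0.85 (SE 0.39). On the same arrays 1276 olfactory and vomeronasal receptor genes, which tendon has no known use for, had medians of -0.03, 2.11 and 2.03 relative to the control mean on injured replicates 1, 2 and 3. The part of the signal background in these 2 differences was not tested.

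**Figure D3:**
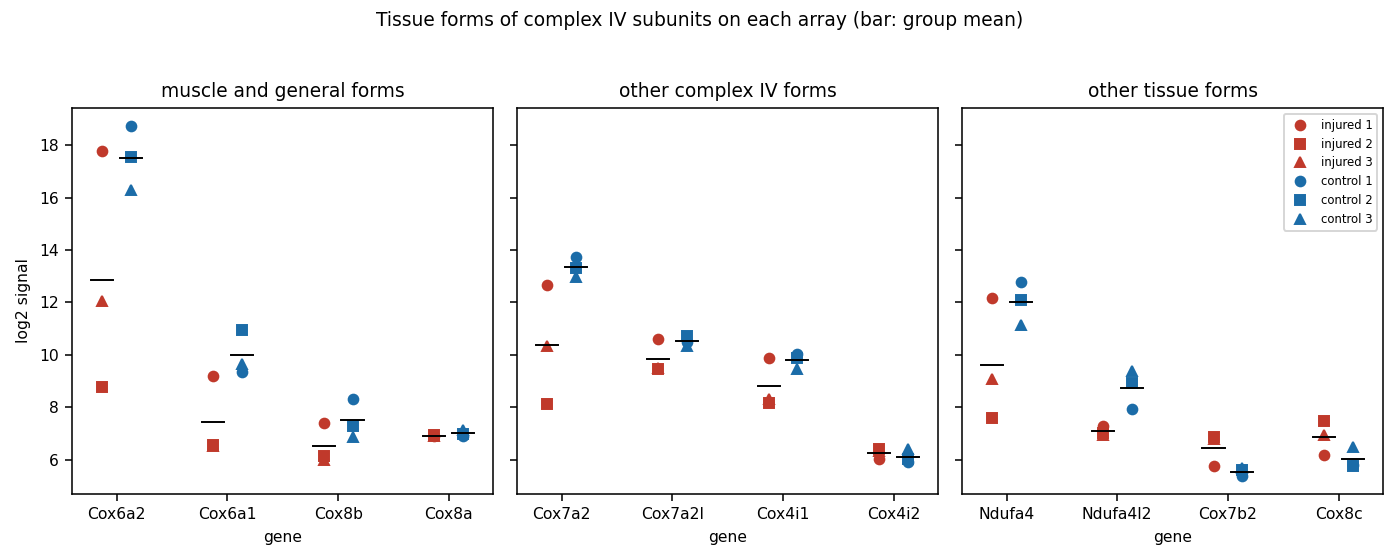
Log2 signal of 12 complex IV subunit genes and tissue forms on each array, injured in red on the left and control in blue on the right of each gene, with bars at the group means. Cox6a2 spans 8.77 to 17.79 on the injured arrays, and Ndufa4l2 lies between 6.96 and 7.27 on them, below all its control arrays. Heights of different genes are not comparable, since they come from different probe sets.

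Complex V, the ATP synthase, had a median difference of -1.58 over 15 genes, all below 0, and 10 of 15 were at least 2-fold lower, against 10.9% of all genes. At an unadjusted p under 0.05, 7 of 15 were lower, against 7.25% of all genes, and without injured replicate 1 limma called 12 of 15 lower, against 21.6%. Its median was -0.35, -2.38 and -1.92 on injured replicates 1, 2 and 3, against 0.56, -0.09 and -0.35 on the control arrays. Differences within F1, the catalytic part of the enzyme, were unequal. Atp5f1a and Atp5f1b encode the alpha and beta subunits of the head, which bind the nucleotides. Atp5f1a read 14.12, 7.96 and 9.77 on injured replicates 1, 2 and 3, against 15.70, 14.25 and 13.88 on control replicates 1, 2 and 3. Atp5f1b read 14.31, 8.33 and 10.50 on the injured arrays and 15.61, 14.09 and 13.84 on the control arrays. Group means for Atp5f1a were 10.62 ± 3.17 in injured tendon and 14.61 ± 0.96 in control tendon (SD, n = 3 each), a difference of -3.99 (SE 1.61), or 15.9-fold, and Atp5f1b differed by -3.47 (SE 1.54). Both had a limma adjusted p of 0.322 with all arrays, and of 0.004 and 0.007 without injured replicate 1. The latter fit drops the injured array nearest the controls. It called 21.6% of all genes lower and 39.1% higher, so these 2 p-values say little about the 2 genes in particular. The other 2 genes of F1 measured, Atp5f1e and Atp5d, encode the epsilon and delta subunits of its rotor. They differed by -2.59 (SE 1.06) and -0.25 (SE 0.15). Their control means were 10.63 and 7.29, against 14.61 and 14.51 for Atp5f1a and Atp5f1b, and the part of signal in these unequal differences was not tested.

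The peripheral stalk holds the head still while the rotor turns. Its subunit b gene, Atp5pb, read 14.31, 8.89 and 10.81 on the injured arrays and 15.77, 14.53 and 13.69 on the control arrays, a difference of -3.33 (SE 1.43). Atp5pd and Atp5pf, further stalk subunits, differed by -3.05 (SE 1.21) and -1.36 (SE 0.46). Atp5po, the protein that ties the stalk to the head, differed by -2.32 (SE 0.72), and its groups did not overlap. The 3 genes Atp5mc1, Atp5mc2 and Atp5mc3 encode the same ring subunit, through which protons pass, and differed by -0.17 (SE 0.18), -1.14 (SE 0.49) and -0.68 (SE 0.18). Atp5mc3 read 8.59, 8.10 and 8.38 on the injured arrays and 9.17, 9.01 and 8.94 on the control arrays, without overlap. Atp5if1, which encodes the inhibitor of the synthase, read 9.54, 9.04 and 9.20 on the injured arrays and 9.38, 9.51 and 9.36 on the control arrays and differed by -0.16 (SE 0.18).

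Atp5mk, a small membrane subunit of the synthase, depended on the probe set. The brighter one, kept by the rule, read 13.78, 10.10 and 11.02 on the injured arrays and 15.29, 14.75 and 14.16 on the control arrays, a difference of -3.10 (SE 0.98). Its identifier carries chromosome 10, while RefSeq places the gene on chromosome 1. The other probe set, with chromosome 1 in its identifier, read 7.93, 7.97 and 8.02 on the injured arrays and 8.53, 8.24 and 8.23 on the control arrays, a difference of -0.36. Over all probe sets with both chromosomes known, 98.54% of 23003 had the same chromosome in the identifier and in RefSeq. Which of the probe sets reads the Atp5mk transcript was not tested.

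Size of difference went with signal. Subunit genes with a mean over the 6 arrays of 10 or above had a median difference of -2.96 (21 genes), those from 8 to 10 had -1.24 (28 genes) and those under 8 had -0.52 (30 genes). The full gene set showed the same order, and in the same ranges its medians were -1.46 (1340 genes), -0.76 (3441 genes) and 0.26 (17312 genes). Across the 79 subunit genes, mean signal and difference correlated at r = -0.83, and across all 22093 genes at r = -0.553. Genes share the same 6 arrays and are not independent, so these values are descriptions. At least a 2-fold lower mean was seen for 20 of the 21 brightest subunit genes and for 65.0% of all genes in that range. The exception was Cox7a2l, at -0.67. On injured replicates 2 and 3, 17 and 10 of the 79 subunit genes read below the unnamed median of the array, against 0 on injured replicate 1 and 1, 0 and 2 on the control arrays. Of all 22093 genes, 9634 and 9251 read below it on injured replicates 2 and 3, against 7056 on injured replicate 1. The counts on control replicates 1, 2 and 3 were 6947, 6948 and 7224. The part of the background signal in the smaller differences of dim genes was not tested.

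**Figure D4:**
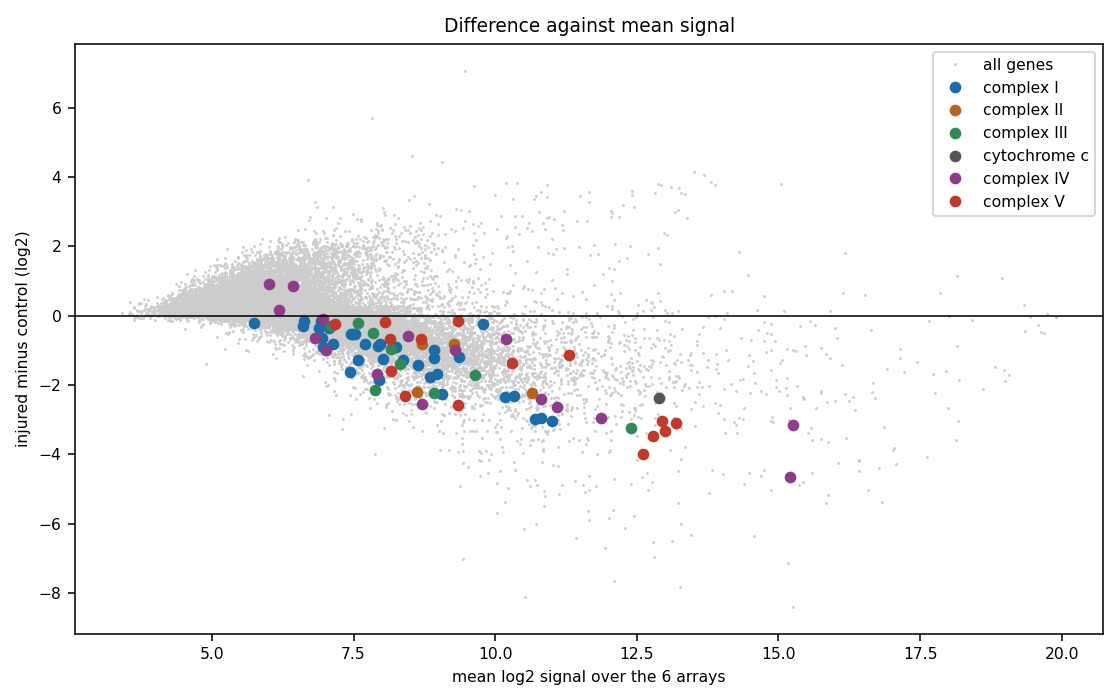
Difference of injured minus control (log2) against mean log2 signal over the 6 arrays, for all 22093 genes in grey and the subunit genes coloured by complex. The subunit genes run downward with signal, from 0.91 for Cox7b2 to -4.66 for Cox6a2.

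The 26 pseudogenes and like-named copies had a median difference of -0.62, with 21 below 0, against 38.2% of all genes, and 10 at least 2-fold lower, against 10.9%. Cox7a2l2, a like-named copy of the subunit VIIa family, read 13.68, 9.15 and 10.93 on the injured arrays and 14.76, 14.27 and 14.19 on the control arrays, a difference of -3.15 (SE 1.12). The 3 Uqcrb copies, Uqcrb-ps1, Uqcrb-ps2 and Uqcrbl1, differed by -2.49 (SE 1.02), -2.39 (SE 0.99) and -2.33 (SE 0.90), beside -1.72 for Uqcrb. Signals of near-identical copies cannot be told apart from those of the parent gene, so these copies are uncertain as separate transcripts. The probe set named Cox6b1-ps1 has chromosome 1 in its identifier, while RefSeq places that pseudogene on chromosome 2. It differed by -1.20 (SE 0.44).

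Genes that work with the respiratory chain were taken from lists. Citric acid cycle and pyruvate dehydrogenase genes, which supply NADH and succinate, had a median difference of -2.16 over 16 genes, all below 0, with 3 lower at an unadjusted p under 0.05. Their median stood at -0.12, -3.52 and -2.83 on injured replicates 1, 2 and 3. Pdha1, a subunit of pyruvate dehydrogenase, read 15.65, 10.41 and 11.04 on the injured arrays and 16.95, 15.75 and 14.59 on the control arrays, a difference of -3.40 (SE 1.50), and Idh3a, of isocitrate dehydrogenase, differed by -2.99 (SE 1.36). Fatty acid oxidation genes had a median of -1.70 over 18 genes, 17 of them below 0, and the injured arrays had medians of 0.14, -2.95 and -2.47. Etfa, which hands electrons from fatty acids to the chain, and Hadhb, of the trifunctional protein, differed by -2.45 (SE 1.40) and -2.62 (SE 1.50). Carriers, porins and import genes had a median of -1.08 over 20 genes and stood at 0.34, -1.90 and -1.85 on the injured arrays. Vdac3, an outer membrane porin, differed by -3.07 (SE 1.61), and Hspa9, the matrix chaperone, by -1.07 (SE 1.20). No gene of these 3 lists had an adjusted p under 0.05 in limma, and at an unadjusted p under 0.05, 3, 3 and 2 were lower and 0, 0 and 1 higher. These are 18.8%, 16.7% and 10% of the lists lower, against 7.25% of all genes lower and 4.39% higher, so the share of the carriers lay near that of all genes.

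Genes that build the chain had smaller median differences than the subunit genes, and the difference between the lists was not tested. They also read dimmer: on control replicates 1, 2 and 3 the median signal was 7.90, 7.64 and 7.48 for assembly factors. It was 7.56, 7.29 and 7.06 for mitochondrial ribosomal proteins and 9.58, 9.02 and 8.66 for subunit genes. Subunit genes with a mean signal under 8 had a median difference of -0.52, and the part of signal in the contrast was not tested. Assembly factors had a median of -0.22 over 41 genes, 34 of them below 0, with 4 lower at an unadjusted p under 0.05, or 9.76%, against 7.25% of all genes. The list stood at 0.01, -0.41 and -0.32 on injured replicates 1, 2 and 3. Coa5, needed for complex IV assembly, read 10.41, 8.56 and 9.10 on the injured arrays and 12.07, 10.53 and 10.32 on the control arrays, a difference of -1.62 (SE 0.67), and Cox16, another such factor, differed by -1.30 (SE 0.43). Mitochondrial ribosomal proteins, which make the subunits encoded in mitochondrial DNA, had a median of -0.38 over 21 genes and stood at 0.10, -0.56 and -0.57 on the injured arrays. Mrps22 and Mrps9 differed by -1.48 (SE 0.86) and -1.42 (SE 0.77).

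Regulators of mitochondrial biogenesis had a median of -0.04 over 19 genes, with 11 below 0 and 8 above, and 0 past an unadjusted p of 0.05 in limma. The list stood at 0.20, -0.16 and -0.13 on the injured arrays. Its median signal was 7.08, 7.03 and 6.82 on control replicates 1, 2 and 3, also below that of the subunit genes. Ppargc1a, the coactivator PGC-1alpha, read 7.74, 6.36 and 6.42 on the injured arrays and 9.66, 7.26 and 6.82 on the control arrays, a difference of -1.07 (SE 0.84) within overlapping groups. Tfam, which packages and transcribes mitochondrial DNA, read 9.80, 7.26 and 7.35 on the injured arrays and 9.33, 8.37 and 8.27 on the control arrays, a difference of -0.52 (SE 0.76). Gabpa, a subunit of the factor GABP, differed by -1.29 (SE 0.90), and Tfb2m, a mitochondrial transcription factor, by -0.90 (SE 0.91). Gabpa, Tfam and Tfb2m read higher on injured replicate 1 than on any control array. Nrf1 and Esrra, which encode the factors NRF1 and ERR alpha, differed by 0.09 (SE 0.13) and 0.03 (SE 0.14).

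**Figure D5:**
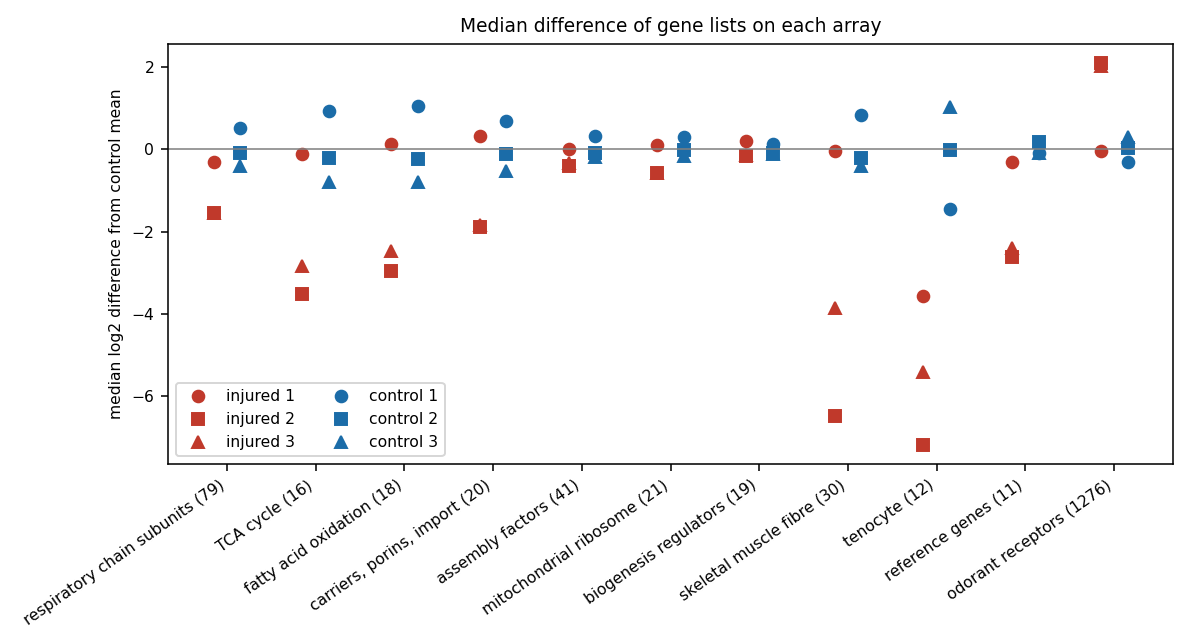
Median log2 difference from the control mean over the genes of each list on each array, injured left and control right, with the number of genes in brackets. Skeletal muscle fibre genes are at -0.03, -6.50 and -3.85 on injured replicates 1, 2 and 3, and the citric acid cycle and fatty acid oxidation genes also have injured replicate 1 among the controls and the other injured arrays far below.

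Markers of other cell types differed between the same arrays. Skeletal muscle fibre genes were lower for 30 of 30 markers, with a median of -3.73, and stood at -0.03, -6.50 and -3.85 on the injured arrays, against 0.84, -0.20 and -0.40 on the control arrays. The log2 of their summed signal was 23.28, 17.10 and 20.98 on the injured arrays and 22.92 to 23.57 on the control arrays. Acta1, skeletal actin, was at the highest value of the array on the 3 control arrays and on injured replicates 1 and 3, and read 14.38 on injured replicate 2. None of the 30 was below the unnamed median on injured replicate 1, 2 were on injured replicate 2 and 1 on injured replicate 3. Tenocyte markers were below the control mean on all 3 injured arrays, with medians of -3.57, -7.20 and -5.41 on the injured arrays against -1.44, -0.02 and 1.03 on control replicates 1, 2 and 3. The part of muscle content in the differences of the respiratory chain was not tested.

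On injured replicates 1, 2 and 3 the remaining marker lists had medians of 0.55, -2.64 and -2.63 for endothelial genes and 0.44, -2.18 and -1.68 for pericyte and smooth muscle genes. The values were -0.79, -2.37 and -2.41 for adipocyte genes, -0.62, 0.55 and 0.22 for macrophage genes, -0.01, 1.54 and 0.89 for neutrophil genes and -0.25, -0.14 and -0.14 for erythroid genes. Reference genes, often used as internal standards, were at -0.29, -2.63 and -2.41, and the subunit genes at -0.32, -1.54 and -1.54. Both lists hold Sdha, which was at -0.40, -3.41 and -2.90, and the difference between the lists was not tested.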

How the data were processed

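Values were the deposited log2 signals of 68842 probe sets on 6 arrays, for which the submitters' processing notes name Affymetrix Expression Console. Neither its version nor the authors' normalization is stated, and the range of values shows the log2 scale. Titles name a rat array, the protocol a mouse array, and the annotation lists rat genes. A single symbol was given for 23446 probe sets, more than 1 for 505 and no symbol for 44891. Injured was compared with control in limma 3.58.1 under R 4.3.3 (lmFit and eBayes, two-sided, Benjamini-Hochberg over 22093 genes), without further normalization or filter. Differences are injured minus control with standard errors (SE).

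The members and 15 gene lists (242 of 255 genes measured) were chosen with earlier results of these data known. The rule for named genes gave array values for the 3 largest differences and 2 brightest members of each complex, tissue forms and Cycs, and the 2 brightest genes of each list with 5 regulators. Others were chosen after their values were seen. The fit was tested on simulated data, with independent noise of the control arrays' spread in both groups. That test does not cover genes that spread wider on the injured arrays, such as Cox6a2. Limma p-values set the group difference against the spread of these arrays within groups. That spread is taken as equal in both groups and drawn towards a value shared by all genes. The permutation p-values come from relabelling the 6 arrays. Alternatives covered scaling, dim genes, choice of probe set, variance model, array weights, a background covariate, the replicate number as a block and leaving out each array. The planned pair of Cox7a1 and Cox7a2 was not analysed here.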

Additional observations from a re-analysis of the deposited data

How the results depend on the processing

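No member was called in limma at an adjusted p of 0.05 with all 6 arrays. At an unadjusted limma p under 0.05, 43 of 105 members were lower and 1 higher, against 7.25% and 4.39% of all genes. Calls over all genes and over the members were 0 and 0 under 14 of the 17 alternatives. They were 16102 and 87 with array weights, which gave injured replicate 1 a weight of 0.0687, 13418 and 73 without injured replicate 1, and 9 and 0 for injured replicate 1 alone against control. Leaving out 1 array gave 0 to 13418 calls over all genes and 0 to 73 over the members. The 73 members called without injured replicate 1 were all called with array weights. Array weights and the fit without injured replicate 1 called most of the 22093 genes and most of the 105 members. The number of calls there therefore says little about the respiratory chain. Without injured replicate 1, 69 members were called lower and 4 higher, against 21.6% and 39.1% of all genes. Median differences of the members and of each complex were below 0 in all these settings, but smaller with a covariate, each array's median over unnamed probe sets: -0.29 for all members, -0.30 for subunit genes, and -0.29, -0.39, -0.31, -0.003 and -0.35 for complexes I to V. For injured replicate 1 alone they were -0.29, -0.32, -0.33, -0.46, -0.30, -0.003 and -0.35. Chosen after seeing the data were this setting (its lone injured array assumed to vary like the controls) and the probe set on the RefSeq chromosome.

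Of the 27 members followed through the alternatives, 5 changed sign. Over all 79 subunit genes, 14 had injured replicate 1 alone on the other side of the control mean than the group difference, among them Ndufs6 (0.74). With the covariate and for injured replicate 1 alone, the differences were 0.16 and 0.26 for Cox6a2, 0.017 and 0.073 for Cox7a2l, 0.044 and 0.090 for Cox4i1, -0.13 and -0.08 for Cox4i2, and 0.14 and 0.15 for Ndufa4. Cox4i2 was also at -0.36 after quantile normalization and -0.37 after centring. The cause was not tested. Quantile normalization and centring moved the median of all genes to -0.28 and -0.38, against 0.15 as deposited, and the subunit median relative to it was -1.10 and -1.33, against -1.33 as deposited. Of genes at an unadjusted p under 0.05, 80.9% and 83.8% were lower after these scalings, against 62.3% as deposited.

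With the replicate number as a block, 0 genes were called and the member median stayed at -0.99, while 71 members were lower at an unadjusted p under 0.05 (9.54% of all genes). Deviations of same-numbered arrays correlated at 0.48, -0.04 and 0.59, and injured replicate 2 correlated best with control replicate 3 (0.65), so the numbers were not read as pairs. The Cox6a2 pair difference was -2.11 and the Cox8b pair difference -0.90 under the block.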

Other observations

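Probe sets that name a respiratory chain gene together with another gene were left out of the members. The one naming Cox7c, a ubiquitous complex IV subunit, and LOC252890 read 7.73, 6.52 and 6.57 on injured replicates 1, 2 and 3 and 8.04, 7.92 and 7.70 on the control arrays, a difference of -0.95. The one naming Atp5f1c, the shaft subunit of the ATP synthase, and Taf3 differed by -0.38, and the one naming Atp5me and Slc49a3 by 0.08.

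Second probe sets existed for 5 members. Those of Atp5pb, Atp5f1e and Ndufa1 differed by -2.43, -1.76 and -0.51, against -3.33, -2.59 and -1.23 for the probe sets kept. In these 3 genes both probe sets were lower, and the brighter one by more.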
